A study of Homo sapiens with 6 samples.

Results

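The genes examined here encode the carriers that move short-chain fatty acids, lactate and related monocarboxylates across the plasma membrane, and the glycoproteins that bring these carriers to the surface. They are the 9 genes SLC16A1, SLC16A3, SLC16A5, SLC16A6, SLC16A7, SLC16A9, SLC5A8, BSG and EMB, chosen by name among the 58735 Ensembl genes of the deposited count table. All 9 symbols were found in the table. The data came from Meg-01, an established human megakaryoblastic cell line, and C3 is propionate, given as sodium propionate. RNA sequencing covered 3 libraries of cells without treatment (control) and 3 libraries of cells given 500 µM C3 for 48 h. The labels give the same line for both groups, name no medium and give no culture time for control cells. A figure legend of the study terms the libraries technical replicates, so p-values measure the spread between these libraries, which need not hold the variation between independent cultures.

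Propionate circulates as the anion of a weak acid and enters cells largely through carriers. The proton-linked carriers of the SLC16 family (monocarboxylate transporters, MCT) move a monocarboxylate together with a proton, in the direction that the gradients set. MCT1 (SLC16A1), MCT2 (SLC16A7) and MCT4 (SLC16A3) carry lactate and pyruvate, and MCT1 also carries propionate and butyrate. MCT4 is known for lactate export from glycolytic cells. The sodium-coupled carrier SMCT1 (SLC5A8) takes up short-chain fatty acids in the colon. MCT1 and MCT4 reach the plasma membrane with basigin (BSG, also called CD147), whereas MCT2 prefers embigin (EMB), and both chaperones are single-pass glycoproteins of the immunoglobulin superfamily. Other SLC16 members have other substrates, with MCT7 (SLC16A6) linked to ketone bodies and MCT9 (SLC16A9) to carnitine.

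Library totals lay between 16159449 and 22821722 counts. Counts were scaled by TMM factors, which correct the library size for composition, and are given as normalized counts on the scale of the mean library. The count filter asked for 10 or more counts in 3 or more libraries and left 15078 genes. Of these, 983 (6.52%) passed the gates of the study, an adjusted p under 0.01 together with a fold change over 1.3, in the quasi-likelihood test of edgeR. Of the 12 megakaryocyte and platelet markers examined, 10 passed the count filter, among them ITGA2B at 11611 to 13336 normalized counts, FLI1 and GATA1, whereas PF4 and GP1BB were listed at 0 in every library. Of their merged exon bases, 52.1% and 100% overlap another gene on the same strand, where the counting rule was not given, so these zeros do not show that the genes were silent. GP1BA (log2 fold change -0.49, adjusted p = 2.2e-06 from edgeR's test) and the rarer TUBB1 (-1.36, adjusted p = 0.0025), both encoding platelet proteins, were called lower in C3 cells. ITGB3 had 0.34 (adjusted p = 0.033), short of both gates. Of the merged exon bases of ITGB3, 33.2% overlap another gene on the same strand, so the same limit on counting applies to it. The 12 markers summed to 21797 to 22809 normalized counts in control and 20465 to 22584 in C3 libraries. Summed monocyte markers (4 genes, mostly LYZ) were at 689 to 718 normalized counts in control and 528 to 547 in C3 libraries, with FCGR3A at 0 throughout. LYZ was called lower (log2 fold change -0.51, adjusted p = 4.7e-05 from edgeR's test), whereas CSF1R had 0.26 (adjusted p = 0.28). Summed fibroblast markers (3 genes) were at 10.7 to 19.1 and 30.6 to 37.6. COL1A1 was called higher (1.89, adjusted p = 0.0094 from edgeR's test) at 2 to 6 counts in control and 11 to 34 in C3 libraries. DCN had 0.83 (adjusted p = 0.17) and was not called. COL1A2 went the other way, with 1 to 3 counts in control and 0 to 1 in C3 libraries, too few to be tested. Summed epithelial markers (3 genes) were at 2232 to 2526 and 1939 to 2165. Erythroid markers (6 genes) summed to 237 to 240 and 247 to 323, T cell markers (4 genes) to 32.3 to 50.1 and 35.3 to 50.7, and B cell markers (3 genes) to 54.1 to 76.4 and 55.7 to 77.4. The part of these marker lists in the results below was not tested, and in bulk RNA fewer expressing cells and less RNA per cell cannot be told apart.

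Of the 9 genes, 8 passed the count filter, each with at least 23 counts in all 6 libraries. SLC16A3 was the single gene of the set called between the groups, with higher expression after C3 treatment. For comparison, 5.05% of all tested genes were called higher and 1.47% lower, so 1 higher and 0 lower call among 8 tested genes is near this background. Among the 7 other tested genes, 3 had positive and 4 negative log2 fold changes, and the median over the 8 was -0.028, against 0.0021 over all tested genes. DESeq2 on all genes called none of the 8, and DESeq2 after the count filter and limma-voom each called SLC16A3 alone. The same 1 and 0 were found at an adjusted p-value below 0.05 alone, which 11.0% of tested genes passed upward and 8.77% downward, and at an unadjusted p-value below 0.05, where the shares were 16.8% and 15.3%. Groups of libraries that do not overlap were seen in 34.4% of all tested genes, 17.5% upward and 16.9% downward, and here in 1 of 8.

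The sequences before the start sites of SLC16A3, the gene that was called, and BSG, the most abundant member, are shown because HIF1A and E-box binding proteins are textbook regulators of these carriers. They come from the RefSeq promoter table on GRCh38.p14, which matched 5 of the 9 genes with 12 start sites. No entry was matched for SLC16A1, SLC16A5, SLC16A6 and EMB. The 250 bases before each start were searched on both strands for ACGTG, the core of the hypoxia response element, and for the E-box CACGTG, which holds the core on each strand. Capitals mark the matches. The first sequence is chr17:82228792-82229041 and the second chr19:572346-572495, both on the forward strand, with no base in an annotated exon of the gene.
SLC16A3: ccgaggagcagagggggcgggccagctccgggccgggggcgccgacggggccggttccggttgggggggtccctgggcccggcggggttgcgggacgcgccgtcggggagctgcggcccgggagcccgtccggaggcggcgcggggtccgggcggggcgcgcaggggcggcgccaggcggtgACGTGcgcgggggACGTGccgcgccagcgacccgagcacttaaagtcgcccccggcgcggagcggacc
BSG: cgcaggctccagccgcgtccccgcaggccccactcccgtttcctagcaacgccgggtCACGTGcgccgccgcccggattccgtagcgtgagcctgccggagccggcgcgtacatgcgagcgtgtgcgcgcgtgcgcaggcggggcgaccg

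In this window, which ends at the start of the canonical transcript, SLC16A3 had 2 matches to ACGTG, beginning 68 and 55 bases before the start, and no E-box. The 4 other SLC16A3 windows had neither motif. The BSG sequence shown is the first 150 of the 250 bases before its canonical start. BSG had an E-box beginning 193 bases before that start, and its other window had neither motif. SLC16A9 also had 1 E-box, 47 bases before 1 of its 2 starts, whereas the windows of SLC16A7 and SLC5A8 had neither motif. Of the 12 windows of the set, 3 held ACGTG and 2 held CACGTG. Of 35116 windows of the same length, 18.5% held ACGTG and 6.35% held CACGTG. These shares were not matched for base composition. The SLC16A3 and BSG windows before the canonical starts held 83.2% and 78.4% G and C, against a median of 58% over all windows. A match is a description of these letters, not of binding.

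SLC16A3 (ENSG00000141526, MCT4) is on chromosome 17 of GRCh38 (82217934 to 82261129, forward strand). Its normalized counts were 321, 302 and 278 in control replicates 1, 2 and 3 and 412, 366 and 424 in C3 replicates 1, 2 and 3. Each C3 library was higher than every control library. The mean rose from 301 ± 21.6 to 401 ± 30.9 (SD, n = 3 libraries each), with a two-sided exact permutation p-value of 0.1, the smallest this test can give with 3 libraries against 3. On the log2 scale, edgeR estimated a rise of 0.41 with a standard error of 0.096 and a Benjamini-Hochberg adjusted p-value of 0.0031. This is a 1.33-fold rise, with a 95% confidence interval of 1.16 to 1.53, so the estimate is just past the fold change gate and the interval reaches below it. By p-value, SLC16A3 ranked 1051 among the 15078 tested genes.

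The SLC16A3 call was lost in 4 of 14 alternative settings, although the adjusted p-value was below 0.05 in all 14. Without control replicate 3, the log2 fold change was 0.36, and without C3 replicate 3 it was 0.37, both under the gate of 0.38, with adjusted p-values of 0.019 and 0.033 from edgeR's test. Without control replicate 2, the log2 fold change was 0.42 with an adjusted p-value of 0.016. DESeq2 on all genes gave 0.40 with an adjusted p-value of 0.011.

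**Figure D1:**
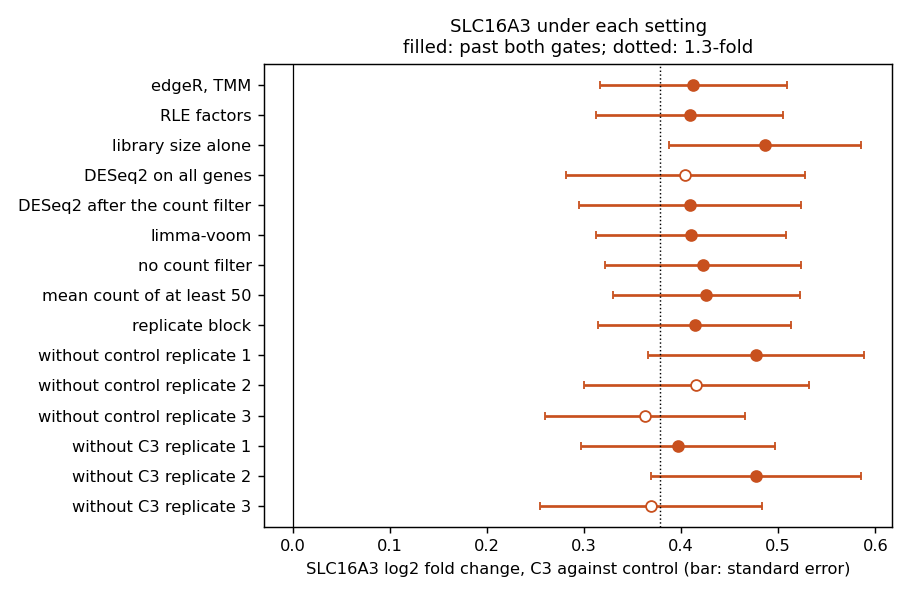
Log2 fold change of SLC16A3 (x axis, C3 against control) in the main edgeR fit and under 14 alternative settings (rows), with bars of 1 standard error. Filled points passed both gates, open points did not, the dotted line is the 1.3-fold gate, and all estimates lie between 0.36 and 0.49.

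A total of 5.22% of the merged exon bases of SLC16A3 overlap CSNK1D, a casein kinase gene on the opposite strand, and the strand setting of the counting is not given in the sources used here. CSNK1D had 3585 normalized counts in control and 3267 in C3 libraries, with a log2 fold change of -0.14 (adjusted p = 0.148 from edgeR's test). Whether reads from the overlap add to the counts of SLC16A3 was not tested. The microRNA gene MIR6787, inside SLC16A3 on the same strand, was at 0 in all libraries.

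SLC16A1 (ENSG00000155380, MCT1), the main carrier of lactate and propionate in many cells, is on chromosome 1 (112911847 to 112957593, reverse strand). Control libraries had 4707, 4845 and 4991 normalized counts and C3 libraries 4542, 4712 and 4651, in the order of replicates 1, 2 and 3. The C3 libraries were on the low side, but C3 replicate 2 lay above control replicate 1, so the groups overlapped. Means were 4848 ± 142 and 4635 ± 86.1 (SD, n = 3 each). The log2 fold change of -0.064 (standard error 0.060) did not pass edgeR's test (adjusted p = 0.50), and the exact permutation p-value was 0.2. The 95% confidence interval of the fold change, 0.878 to 1.04, does not include the 1.3-fold gate in either direction.

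The relation between the counts of SLC16A3 and SLC16A1 was read within each library, where it does not depend on scaling. SLC16A3 counts were 6.21% ± 0.63 of SLC16A1 counts in control and 8.65% ± 0.77 in C3 libraries (SD, n = 3 each). The log2 ratio was -3.87, -4.00 and -4.17 in control and -3.46, -3.69 and -3.45 in C3 replicates 1, 2 and 3. The ratio was higher in each C3 library than in any control library, by 0.48 on average (two-sided exact permutation p = 0.1, the smallest this test can give here). Leaving out single libraries gave differences of 0.40 to 0.55.

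SLC16A7 (ENSG00000118596, MCT2), a carrier with high affinity for pyruvate and lactate, is on chromosome 12 (59596029 to 59789855, forward strand). It had 290, 304 and 325 normalized counts in control replicates 1, 2 and 3 and 297, 347 and 289 in the C3 replicates. The control range lay inside the C3 range. The difference was 0.023 on the log2 scale, with a standard error of 0.10 and an adjusted p of 0.91 (edgeR), and with a 95% confidence interval of the fold change from 0.879 to 1.17.

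The other SLC16 members differ from these in their substrates. SLC16A5 (ENSG00000170190, MCT6), known as a carrier of drugs such as bumetanide, is on chromosome 17 (75087727 to 75106162, forward strand). Normalized counts of 102, 119 and 77.6 in control replicates 1, 2 and 3 stood against 118, 116 and 136 in the C3 replicates. Control replicate 2 lay inside the range of the C3 libraries and control replicate 3 was the lowest of all 6. A log2 fold change of 0.31 (standard error 0.16) had an unadjusted p of 0.065 and an adjusted p of 0.19 in edgeR. Without control replicate 3 it was 0.17, and without control replicate 2 it was 0.45, with adjusted p-values of 0.52 and 0.105 from the same test. The 95% confidence interval of the fold change, 0.985 to 1.56, holds both no change and a rise past the gate.

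SLC16A9 (ENSG00000165449, MCT9), on chromosome 10 (59650764 to 59736002, reverse strand), was measured at intermediate counts. In control replicates 1, 2 and 3 it had 278, 239 and 284 normalized counts, and in the C3 replicates 216, 268 and 242. The C3 libraries spread from below the control range to within it. Its log2 fold change of -0.14 had a standard error of 0.11 and did not pass the test (adjusted p = 0.44, edgeR). SLC16A6 (ENSG00000108932, MCT7), on chromosome 17 (68267026 to 68291267, reverse strand), was the least abundant member with counts. There were 41.1, 38.2 and 41.8 normalized counts in control replicates 1, 2 and 3 and 26.2, 42.1 and 41.6 in the C3 replicates. A single library, C3 replicate 1, was low. The estimate was -0.12 on the log2 scale, with a standard error of 0.25 and an adjusted p of 0.79 (edgeR). The 95% confidence interval of the fold change ran from 0.644 to 1.32 and reached past the 1.3-fold gate in both directions. Of the merged exon bases of SLC16A6, 3.55% overlap ARSG, a sulfatase gene on the opposite strand, which had 72.4 and 52.0 normalized counts (log2 fold change -0.49, adjusted p = 0.10 from edgeR's test).

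SLC5A8 (ENSG00000256870, SMCT1), on chromosome 12 (101155493 to 101210238, reverse strand), had 0 counts in all 6 libraries. With 53528733 control and 57987039 C3 counts in total, 0 counts allow up to 3 counts per group, or 0.056 CPM (the count scaled to a common library size) in control and 0.052 CPM in C3 libraries, by counting error only. Transcripts of the sodium-coupled carrier were therefore not detectable in either group, and no fold change is given.

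**Figure D2:**
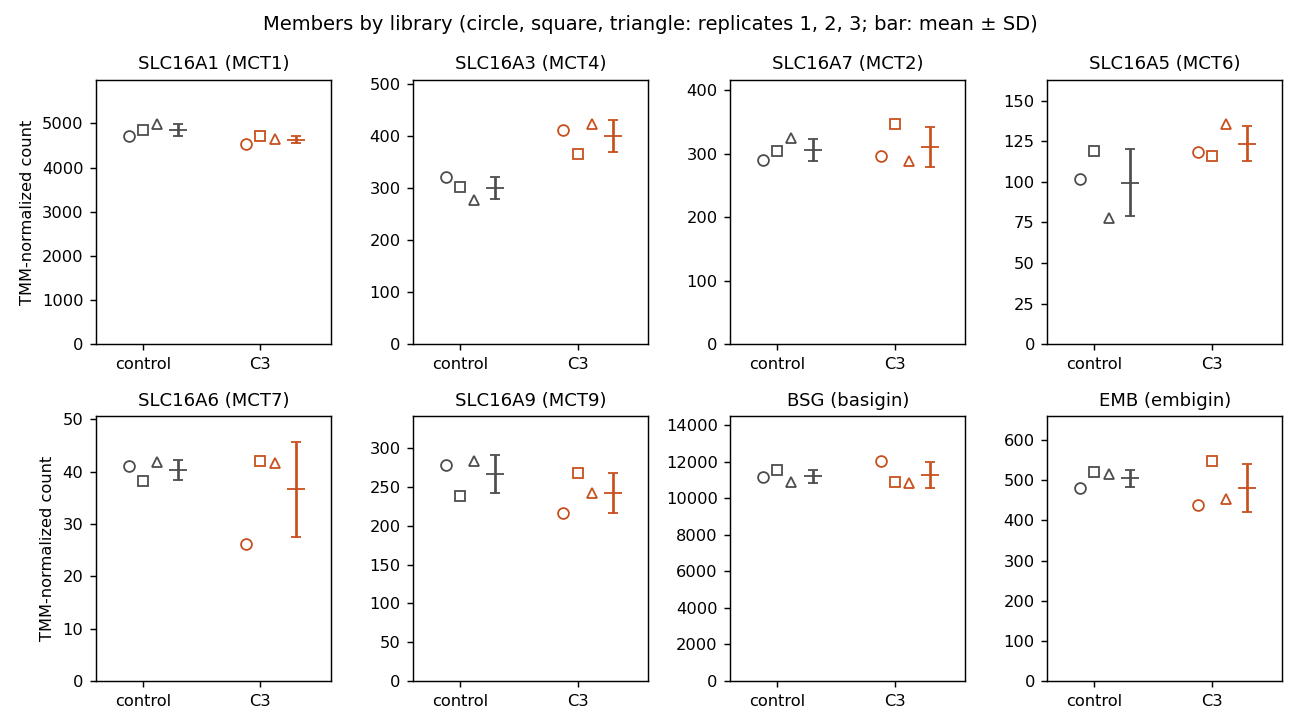
TMM-normalized counts (y axes, each from 0) of the 8 genes with counts in the 3 control and 3 C3 libraries, with symbols for the replicates and bars for the mean ± SD. The 3 SLC16A3 values after C3 treatment (366 to 424) lie above all control values (278 to 321), whereas the groups overlap in the 7 other panels.

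BSG (ENSG00000172270), the gene of basigin, is on chromosome 19 (571277 to 583494, forward strand). Control libraries had 11142, 11561 and 10878 normalized counts and C3 libraries 12068, 10885 and 10812, in the order of replicates 1, 2 and 3. C3 replicate 1 was the highest and C3 replicate 3 the lowest of all libraries, so the control range lay inside the C3 range. Means differed by 0.0076 on the log2 scale, with a standard error of 0.065 and an adjusted p of 0.95 (edgeR). With a 95% confidence interval of 0.917 to 1.10 for the fold change, BSG was closely bounded, with SLC16A1 the only narrower interval of the set. The antisense gene BSG-AS1 overlaps 3.17% of its merged exon bases and had 31.8 and 27.1 normalized counts.

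EMB (ENSG00000170571), the gene of embigin, is on chromosome 5 (50396192 to 50443248, reverse strand). In control replicates 1, 2 and 3 there were 481, 520 and 515 normalized counts, and in the C3 replicates 438, 549 and 453. C3 replicate 2 was above and the other two C3 libraries were below all control libraries. With a log2 fold change of -0.071 and a standard error of 0.090, EMB did not pass the test (adjusted p = 0.63, edgeR). The pseudogene EMBP1, to which reads of EMB could also map, had 30.5 normalized counts in control and 24.3 in C3 libraries.

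The balance of the chaperones and their clients was also read within libraries. The log2 ratio of EMB to BSG counts was -4.47 ± 0.066 in control and -4.56 ± 0.24 in C3 libraries (SD, n = 3 each), with a difference of -0.086 and a two-sided exact permutation p-value of 0.6. Without C3 replicate 1, this difference became 0.028. The log2 ratio of BSG to SLC16A1 counts was 1.21 ± 0.072 and 1.28 ± 0.11, with a difference of 0.071 and an exact permutation p-value of 0.6. In both ratios the groups overlapped.

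**Figure D3:**
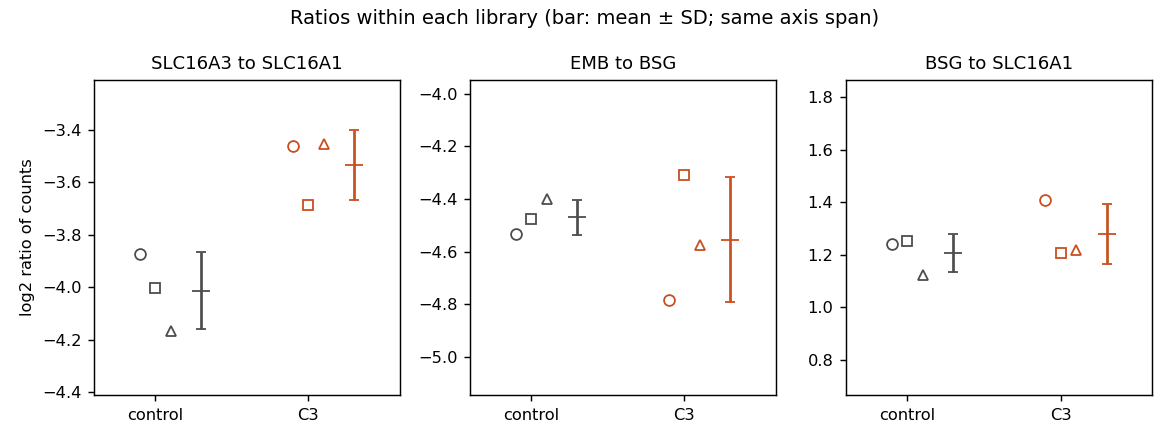
Log2 ratios of counts within each library (y axes, all of the same span) for 3 gene pairs in control and C3 libraries, with symbols for the replicates and bars for the mean ± SD. The SLC16A3 to SLC16A1 ratio has all C3 libraries (-3.69 to -3.45) above all control libraries (-4.17 to -3.87), and the other 2 ratios overlap between groups.

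To compare genes with each other, normalized counts were divided by the length of their merged exons. On this scale BSG had the highest level, at 2534 ± 78.0 normalized counts per kb in control and 2548 ± 160 in C3 libraries (SD, n = 3 each). SLC16A1 followed at 764 ± 22.4 and 730 ± 13.6, and the level of BSG was 3.32 times that of SLC16A1 in control cells. Among the 6 SLC16 carriers of the set, SLC16A1 held 81.8% to 83.4% of the summed level per kb in control and 80.4% to 81.5% in C3 libraries. SLC16A10 and SLC16A13, named among the related genes, are not in this sum, and SLC16A13 was at 120 ± 3.35 normalized counts per kb in control libraries (SD, n = 3).

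The remaining genes were far below SLC16A1. EMB was at 96.4 ± 4.01 normalized counts per kb in control and 91.7 ± 11.5 in C3 libraries, and SLC16A9 at 63.6 ± 5.90 and 57.7 ± 6.16. SLC16A3 was at 32.5 ± 2.34 and 43.4 ± 3.35, and its share of the summed level of the 6 carriers was 3.52% ± 0.32 in control and 4.81% ± 0.43 in C3 libraries. SLC16A5 was at 32.2 ± 6.70 and 39.9 ± 3.50, and overlapped SLC16A3 in both groups on this scale. SLC16A7 was at 22.4 ± 1.28 and 22.7 ± 2.32, and SLC16A6 at 9.95 ± 0.48 and 9.03 ± 2.23. All other neighbours in the order were apart in both groups. Lengths are uncertain where a gene has several isoforms. The place of SLC16A3 in the order depended on the length used. By the canonical transcript it was at 116 normalized counts per kb in control and 154 in C3 libraries, against 51.2 and 63.5 for SLC16A5, 67.7 and 61.4 for SLC16A9 and 120 and 114 for EMB, so that it stood above SLC16A9 in both groups and above EMB in C3 libraries. By the longest transcript it was at 62.2 and 82.9, above SLC16A9 in C3 libraries only (67.7 and 61.4). Its share of the 6 carriers was 7.41% in control and 9.95% in C3 libraries by the canonical transcript, and that of SLC16A1 82.6% and 79.7%.

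**Figure D4:**
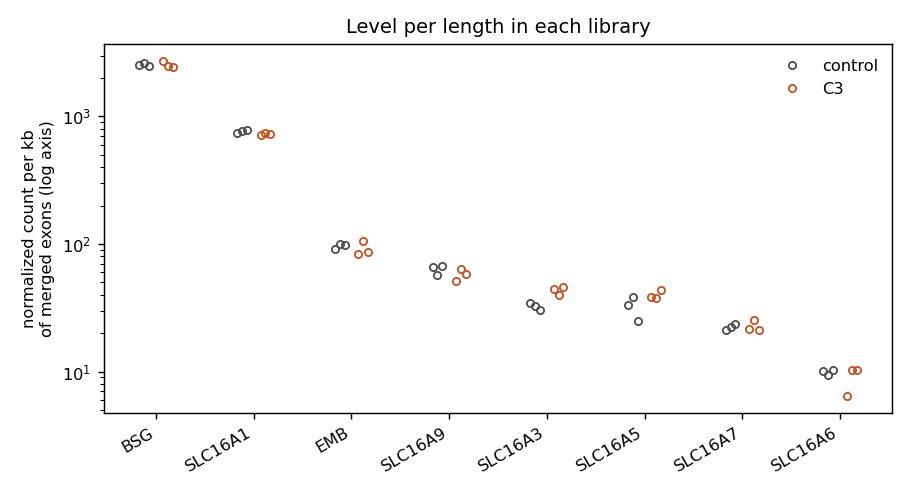
Normalized counts per kb of merged exons (y axis, logarithmic) of the 8 genes with counts, in each control and C3 library, ordered by the control mean. BSG (2534 in control) and SLC16A1 (764) stand above all others, which lie at or below 105 in every library.

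Libraries of a group differed for the rarer genes in part through counting error. For SLC16A6, the coefficient of variation was 4.78% in control and 24.7% in C3 libraries, against 16.3% and 16.8% from counting alone. For SLC16A5, it was 20.8% in control libraries, where counting alone gives 10.6%, and 8.76% in C3 libraries, where counting alone gives 8.88%. For SLC16A3, it was 7.19% in control and 7.72% in C3 libraries, where counting alone gives 6.01% and 4.91%. For SLC16A1 and BSG it was 2.93% and 3.08% in control libraries, where counting alone gives 1.49% and 0.982%. There the spread between libraries was the larger part. In C3 libraries it was 1.86% for SLC16A1 and 6.26% for BSG, where counting alone gives 1.44% and 0.922%. The 4 genes SLC16A3, SLC16A5, SLC16A7 and SLC16A9 had between 65 and 541 counts per library.

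Beside these 9 genes, 50 genes of the same physiology were examined in 6 lists written by hand, of which 33 passed the count filter. None passed both gates in edgeR's test, in DESeq2 (all genes or filtered) or in limma-voom. At an adjusted p-value below 0.05, 2 were higher and 2 lower by edgeR's test, where 19.8% of all tested genes passed in either direction. At an unadjusted p-value below 0.05, 5 were higher and 4 lower of 33, where 16.8% and 15.3% of all tested genes were, so these counts are near the background. Their median log2 fold change was 0.037.

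Among 8 other SLC16 and SLC5 carriers, 2 passed the count filter. SLC16A10, a carrier of aromatic amino acids, had 343, 406 and 364 normalized counts in control and 456, 452 and 437 in C3 replicates 1, 2 and 3, with all C3 libraries above. Its log2 fold change of 0.27 (adjusted p = 0.031 from edgeR's test) was short of both gates, and 6 of 14 alternatives gave an adjusted p-value above 0.05, with 0.13 without control replicate 1 as the highest. SLC16A13, the gene of MCT13, had a log2 fold change of -0.20 (adjusted p = 0.20), with 250.3 to 264 normalized counts in control and 219 to 236 in C3 libraries. The 6 carriers that did not pass the filter, among them SLC5A12, the second sodium-coupled monocarboxylate carrier, had at most 8 counts in any library.

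Of 15 genes of lactate and pyruvate metabolism, 12 passed the filter, and none had an adjusted p-value below 0.05 in edgeR's test. At an unadjusted p-value below 0.05, 0 were higher and 2 were lower, beside the same 16.8% and 15.3% of all tested genes. These were PDHB, a subunit of pyruvate dehydrogenase, with a log2 fold change of -0.15 (adjusted p = 0.10), and PDK2, a kinase that inhibits this enzyme, with -0.19 (adjusted p = 0.14). LDHA, the lactate dehydrogenase subunit favouring lactate production, had a log2 fold change of -0.12 (adjusted p = 0.20 from edgeR's test).

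Of 7 partners and relatives of the chaperones, all tested, 1 was lower at an adjusted p-value below 0.05, beside 8.77% of all tested genes. This was SLC2A1, the glucose carrier GLUT1, with 2441, 2440 and 2386 normalized counts in control and 2189, 2007 and 2127 in C3 replicates 1, 2 and 3, and a log2 fold change of -0.20 (adjusted p = 0.021 from edgeR's test). Scaling by library size alone gave -0.13 with an adjusted p-value of 0.14, and 5 of 14 alternatives were above 0.05. PPIA, the cyclophilin that binds basigin, had a log2 fold change of -0.14 (adjusted p = 0.16). Of 8 genes of proton and bicarbonate handling, 6 were tested. At an adjusted p-value below 0.05, 1 was higher, beside 11.0% of all tested genes. CA13, a cytosolic carbonic anhydrase, had 102, 97.6 and 130 normalized counts in control and 153, 151 and 146 in C3 replicates 1, 2 and 3, with a log2 fold change of 0.45 (adjusted p = 0.027). In 6 of 14 alternatives its adjusted p-value was above 0.05, with 0.14 without control replicate 2 as the highest. CA2, a carbonic anhydrase that binds MCT1, had a log2 fold change of 0.21 (adjusted p = 0.11), and CA9 was at 0 in every library.

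None of the 5 receptor genes for short-chain fatty acids and lactate passed the count filter. FFAR2 had 6 to 13 counts per library. FFAR3 had 0 counts in each control and 1 count in each C3 library, HCAR2 had 5, 2 and 1 counts in control and 0 in each C3 library, and HCAR1 was at 0 throughout. These counts are too low to compare the groups. Of 7 regulators, 6 were tested. TXNIP, a glucose-responsive arrestin-like gene that restrains glucose uptake, had 1616, 1569 and 1795 normalized counts in control and 1315, 1263 and 1394 in C3 replicates 1, 2 and 3. It had a log2 fold change of -0.32 (adjusted p = 0.0012 from edgeR's test), short of the fold change gate, and its adjusted p-value was below 0.05 in all 14 alternatives. HIF1A, the hypoxia-inducible factor, had a log2 fold change of 0.20 (adjusted p = 0.057), with all C3 libraries (959 to 1123 normalized counts) above all control libraries (846 to 954).

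**Figure D5:**
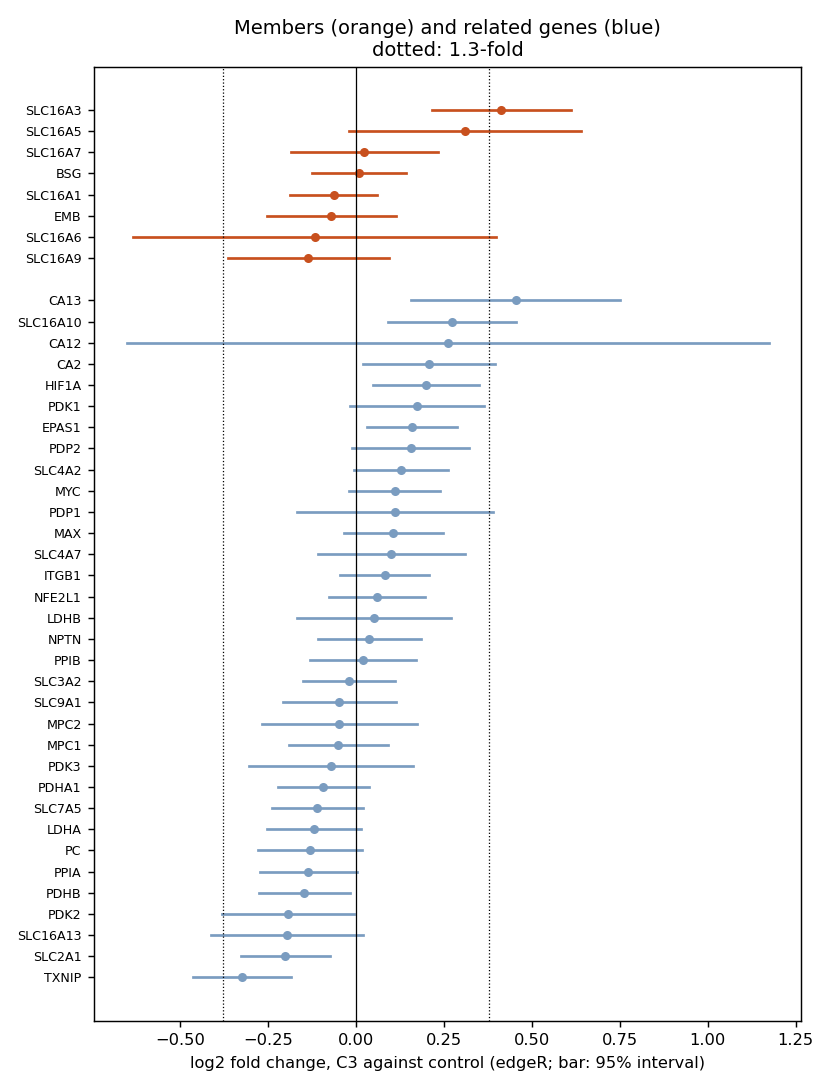
Log2 fold changes (x axis, C3 against control, edgeR) with 95% confidence intervals of the 8 tested carrier and chaperone genes (orange) and the 33 tested related genes (blue), with dotted lines at 1.3-fold. SLC16A3 (0.41) is the single gene shown that passed both gates, and TXNIP (-0.32) has the lowest estimate.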

How the data were processed

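Reads were cleaned with fastp, aligned by STAR (2.6.1d) to GRCh38/hg38 and assigned to genes by featureCounts (1.5.0-p3), per the submitters' processing notes and the paper. The deposited values are raw counts per Ensembl gene, without normalization, and all rows name a gene. The annotation release, strand setting and multi-mapping rule were not given in the sources used here. The labels give 48 h of C3, whereas the methods name 24 h and 48 h before RNA extraction. Columns were matched to libraries by name.

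Genes with 10 or more counts in 3 or more libraries were scaled by TMM and tested by quasi-likelihood in edgeR (4.0.16, under R 4.3.3) without a replicate block, with Benjamini-Hochberg adjustment over all 15078 genes. Standard errors were derived from the log2 fold change and its F statistic. Single values had exact two-sided permutation tests. Symbols, coordinates and lengths came from GENCODE release 44 on GRCh38 (58207 of 58735 identifiers matched), and overlaps were computed on exon bases. Alternatives were RLE factors, library size alone, DESeq2 (1.42.0) on all or filtered genes, limma-voom (limma 3.58.1), other count filters, a replicate block and each library left out. Fits were tested on simulated data whose changed genes had a mean of at least 100 counts, a minimum raised after DESeq2 recovered too few lower genes, so recovery at lower counts was not covered.

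The genes and lists were chosen with earlier results of these data known, and 1 listed gene is not reported here. The rule for names covered all 9 genes, and in each related list the genes past both gates or else the 2 with the smallest p-values. LDHA, CA9, SLC5A12 and the receptors were named after their values were seen. For likeness, it covered the 3 genes closest to SLC16A3 and to BSG by Pearson correlation over the 6 libraries, with a mean of at least 50 normalized counts. Within groups, every 2 libraries differed beyond sampling noise (lowest chi-square per degree of freedom 2.42), so none was counted as a copy.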

Additional observations from a re-analysis of the deposited data

How the results depend on the processing

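Of 14 alternative fits, SLC16A3 passed both gates in 10, with log2 fold changes of 0.36 to 0.49 and adjusted p-values of 4.0e-04 to 0.033. DESeq2 on all genes left 0 genes of the set called higher, and the number was 0 to 1 with each library left out. Without control replicate 3 or C3 replicate 3 the estimate was under the fold change gate. No gene was called lower, and no related gene was called, in any alternative. At an adjusted p-value below 0.05 with no fold change gate, the set had the same numbers, 1 higher and 0 lower. Over all genes, library size alone gave 1025 higher and 100 lower calls (91.1% higher, against 77.4%), and leaving out each library gave 516 to 766 higher and 129 to 340 lower, with 340 lower without C3 replicate 1 and 129 without C3 replicate 3. Signs turned in genes near no change, and the cause was not tested. With library size alone, SLC16A1 was at 0.010 and EMB at 0.0052. DESeq2 on all genes put BSG at -0.0011. With each library left out, BSG ranged from -0.042 to 0.039, SLC16A7 from -0.062 to 0.082, SLC16A6 from -0.22 to 0.054 and the EMB to BSG ratio from -0.21 to 0.028. The turned values were -0.012 for BSG without control replicate 3 and -0.042 without C3 replicate 1, -0.0031 for SLC16A7 without control replicate 1 and -0.062 without C3 replicate 2, and 0.054 for SLC16A6 without C3 replicate 1. SLC16A6 could not be fitted at a mean count of at least 50. With the replicate number as a block, 909 genes were higher and 268 lower, and SLC16A3 had an adjusted p-value of 4.0e-04. Libraries with the same number had correlations of their deviations of -0.047 to 0.030, and not every library correlated best with its own number. With 3 libraries per group, these values cannot decide whether the numbers mark pairs. The labels do not say what the numbers stand for. Counts near 40, as for SLC16A6, limit what can be seen.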

Other observations

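Over the 6 libraries, the genes whose log2 CPM ran most like that of SLC16A3, among 11850 other genes with a mean of at least 50 normalized counts, were SORL1 (Pearson's r = 0.997), HLF (0.995) and TCF15 (0.995). SORL1, a sorting receptor gene, had means of 239 and 352 normalized counts in control and C3 libraries, HLF, a transcription factor gene, 62.2 and 81.9, and TCF15, another transcription factor gene, 162 and 255. SORL1 and TCF15 passed an adjusted p-value of 0.01 in edgeR's test (4.0e-04 and 5.2e-04), and HLF did not (0.13). The genes most like BSG were GPKOW (r = 0.984), VEGFB (0.976) and PLIN3 (0.971), with log2 fold changes between 0.012 and 0.034. These values describe 6 libraries that share their 2 groups, and the best of many genes is high by selection.

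The antisense gene SLC16A1-AS1, which overlaps 3.64% of the merged exon bases of SLC16A1, had 63.5 normalized counts in control and 55.6 in C3 libraries (log2 fold change -0.20, adjusted p = 0.56 from edgeR's test). The pseudogene SLC16A6P1 had at most 4 counts in any library and SLC16A1P1 had 0 in all.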
